A study of Homo sapiens with 16 samples.

Results

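The NRF2 antioxidant and detoxification pathway was followed through 38 of its genes in A549 and SUM159 cells. The genes were chosen by name, with earlier results of these data known. They are the transcription factor NRF2, its inhibitor KEAP1 and their known targets in glutathione, thioredoxin, NADPH, carbonyl, drug and iron metabolism. They were found by symbol among the 58676 gene identifiers of the count files. All 38 were matched. Libraries were made from A549, a lung cancer line of human origin known to carry a mutant KEAP1, and from SUM159, a triple negative breast cancer line. Each line was left untreated (UT) or received palbociclib at 2 µM (PD), indisulam at 3 µM (IN) or the 2 drugs together at these doses (P+I) for 16 h, with 2 libraries in each of the 8 groups. Palbociclib inhibits the cell cycle kinases CDK4 and CDK6, and indisulam causes degradation of the splicing factor RBM39. A549 was grown in RPMI and SUM159 in DMEM/F12 with insulin and hydrocortisone, so that effects of the line and of its medium cannot be told apart. The study calls its duplicates technical, and the p-values therefore measure only the spread between these libraries. Changes were tested with the edgeR quasi-likelihood test over all genes, with p-values adjusted by the Benjamini-Hochberg method and called under 0.05.

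The 16 libraries held between 18306636 and 34075588 counts in genes, and 3 counts corresponded to 0.0880 to 0.164 CPM, the count of a gene scaled to a common library size. Duplicates of the members lay close together, with a median difference of 3.08% over 288 pairs of values, and 263 of these pairs differed by less than 10%. Epithelial markers KRT8, KRT18, KRT19, EPCAM and CDH1 were higher in the A549 libraries than in every SUM159 library, whereas VIM and FN1 were higher in the SUM159 libraries. The hormone receptor genes ESR1 and PGR stayed under 1 CPM in SUM159, and the lung markers NKX2-1, SFTPB and SFTPC stayed under 1 CPM in both lines. CDKN2A, the gene of p16, and its neighbour MTAP lay at 1.40 to 2.56 and 16.0 to 33.2 CPM in A549, and no SUM159 library passed 0.0454 CPM for either gene. The study calls A549 p16 null and reports an increase of p16 protein in treated SUM159 cells. The CDKN2A counts run the other way in the libraries of both labels, and this was not resolved here. Lines are named by the labels throughout. PECAM1, a marker of endothelium, lay between 16.5 and 38.5 CPM in SUM159 and PTPRC, a marker of blood cells, between 2.88 and 4.52 CPM, against at most 1.36 and 0.0973 CPM in A549, and their part in the differences between lines was not tested.

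NRF2, the product of NFE2L2, is a transcription factor that is held at low level by KEAP1, an adaptor that presents it to a CUL3 ubiquitin ligase. Oxidants and electrophiles modify cysteines of KEAP1, NRF2 then escapes degradation and, together with small MAF proteins, binds antioxidant response elements near its targets. In lung cancers that carry a mutant KEAP1 the pathway is known to be constantly active, and aldo-keto reductases, NQO1 and GPX2 are among its best known readouts. NRF2 is controlled mainly as a protein, so the level of its mRNA is not a measure of its activity.

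The core of the antioxidant response element, TGACNNNGC, was searched on both strands of 300 bases around the start of each gene, from 250 bases before it to 50 after it. RefSeq windows of GRCh38.p14 were at hand for 27 of the 38 members, and the core was found in 11 of their 36 windows (30.6%), those of 10 members, against 4687 of 35116 windows (13.3%) over all genes. A match is a run of letters and not a bound site. CBR1, KEAP1 and PGD held matches that are not shown. For 7 other members a single match each is shown, and the changes of these genes are described below. The matches are written 5′ to 3′ along the gene, with the core in capitals as it reads on that strand, so that it appears either as TGACNNNGC or as its reverse complement. The core shares its first letters with TGACTCA, the motif of the AP-1 factors, and the ME1 match holds both.
GCLM chr1:93909440-93909480: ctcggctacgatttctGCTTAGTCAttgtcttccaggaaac
GPX2 chr14:64942843-64942883: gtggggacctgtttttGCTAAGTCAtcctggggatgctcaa
TXNRD1 chr12:104215664-104215704: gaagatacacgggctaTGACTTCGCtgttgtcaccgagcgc
ME1 chr6:83431164-83431204: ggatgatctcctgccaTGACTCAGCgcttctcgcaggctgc
IDH1 chr2:208255190-208255230: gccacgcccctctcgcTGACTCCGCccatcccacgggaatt
EPHX1 chr1:225825260-225825300: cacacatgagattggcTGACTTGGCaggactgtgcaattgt
CYP4F11 chr19:15934999-15935039: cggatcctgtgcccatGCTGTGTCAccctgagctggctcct
GCLM, GPX2, TXNRD1 and ME1 make glutathione, reduce peroxides, reduce thioredoxin and supply NADPH, and IDH1, EPHX1 and CYP4F11 supply NADPH, open epoxides and oxidize fatty acids. No window was at hand for ABCC1, ABCC3, AKR1B10, ALDH3A1, CBR3, FTH1, GSR, HMOX1, PRDX1, SLC7A11 and TRIM16L.

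The first comparison set untreated A549 against untreated SUM159 cells. Of the 38 members, 33 were higher in A549 and 3 were lower, while 76.3% of all 17764 genes tested differed between the lines, 38% higher and 38.3% lower in A549. At a difference of at least 2-fold, 26 members were higher and 1 was lower in A549, against 21.4% and 16.5% of all genes. The median log2 difference of the members was 2.14, also with GPX2 taken at its lower bound, beside 0.0127 over all genes. These counts use a scale common to all 16 libraries, and 3 members (GPX2, ALDH1A1 and SRXN1) entered this test through A549 alone.

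The widest gaps were in genes of detoxification. GPX2, a glutathione peroxidase (chr14:64939152-64942746), had 772 and 749 CPM in the 2 untreated A549 libraries and 0 counts in both untreated SUM159 libraries. Taking 3 counts as the floor of a SUM159 library, GPX2 was at least 5500-fold higher in A549. ALDH1A1, which oxidizes retinaldehyde, had 3758 and 3723 CPM in A549 and 8 and 0 counts in SUM159. ALDH3A1, an enzyme that oxidizes aromatic and lipid aldehydes (chr17:19737984-19748943), had 4646 and 4438 CPM in A549 and 1.14 and 1.13 CPM in SUM159. AKR1B10, a reductase of retinal and other aldehydes (chr7:134527567-134541412), had 6684 and 6512 CPM in A549 and 3.13 and 3.22 CPM in SUM159. For each of these 4 genes the groups were far apart. The log2 difference was 11.96 ± 0.08, adjusted p = 4.42e-32, for ALDH3A1 and 11.02 ± 0.09, adjusted p = 1.14e-30, for AKR1B10 (edgeR, ± SE).

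AKR1C1, AKR1C2 and AKR1C3, reductases of steroids and prostaglandins that are neighbours on chromosome 10, differed by 4.74 ± 0.05, 4.94 ± 0.06 and 5.11 ± 0.05 on the log2 scale. AKR1C3 had 1848 and 1798 CPM in A549 and 54.6 and 51.0 CPM in SUM159. Reads of the 3 genes can be split between near-identical copies, and their summed counts differed by 4.95 ± 0.05. CYP4F11, a cytochrome P450 that acts on fatty acids, had 117 and 117 CPM in A549 and 3.22 and 3.49 CPM in SUM159, a log2 difference of 5.12 ± 0.09.

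HMOX1, the enzyme that breaks down haem, was the 1 member at least 2-fold lower in A549. It had 19.6 and 18.6 CPM in A549 and 128 and 128 CPM in SUM159 (-2.75 ± 0.06, adjusted p = 1.91e-23, edgeR). The other lower members were AKR1B1, a reductase of glucose and aldehydes, and NFE2L2 itself. NFE2L2 had 126 and 132 CPM in A549 and 140.1 and 143 CPM in SUM159 (-0.14 ± 0.05, adjusted p = 0.0132, edgeR), a difference that was no longer called without SUM159 UT replicate 2 (-0.13). KEAP1 had 87.5 and 74.6 CPM in A549 and 69.6 and 71.7 CPM in SUM159 (0.20 ± 0.07, adjusted p = 0.0139, edgeR). This small difference rested on A549 UT replicate 1, since it was -0.01 without that library, and it was not called without SUM159 UT replicate 1 (0.17). FTH1, the heavy chain of ferritin, had 3401 and 3355 CPM in A549 and 3320.0 and 3325 CPM in SUM159 and was not called.

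Per kilobase of exon, the order of the members differed between the lines. Exon length was that of all annotated transcripts of a gene merged, 9502 bases for TKT and 8765 for AKR1C1 against 3911 for AKR1C3. The order may depend on this choice, and levels at the length of a single transcript were not computed. In untreated A549 the highest levels, as CPM per kilobase of exon (RPKM, mean of 2 libraries), were those of FTL, the light chain of ferritin (7468), AKR1B10 (3722), FTH1 (1686), ALDH1A1 (1317), ALDH3A1 (1171) and NQO1 (724). In untreated SUM159 they were FTH1 (1658), FTL (1218), the peroxiredoxin PRDX1 (312), AKR1B1 (241) and thioredoxin itself, TXN (211). In SUM159 AKR1B1 lay above TXN by more than the gap between duplicates, at 237 and 245 against 208 and 213 RPKM. SRXN1, sulfiredoxin, had 0 to 18 counts in all 16 libraries, and 90.7% of its exon bases are shared with another annotated gene on the same strand that is listed at 0 counts in every library, so that its count is not usable.

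**Figure D1:**
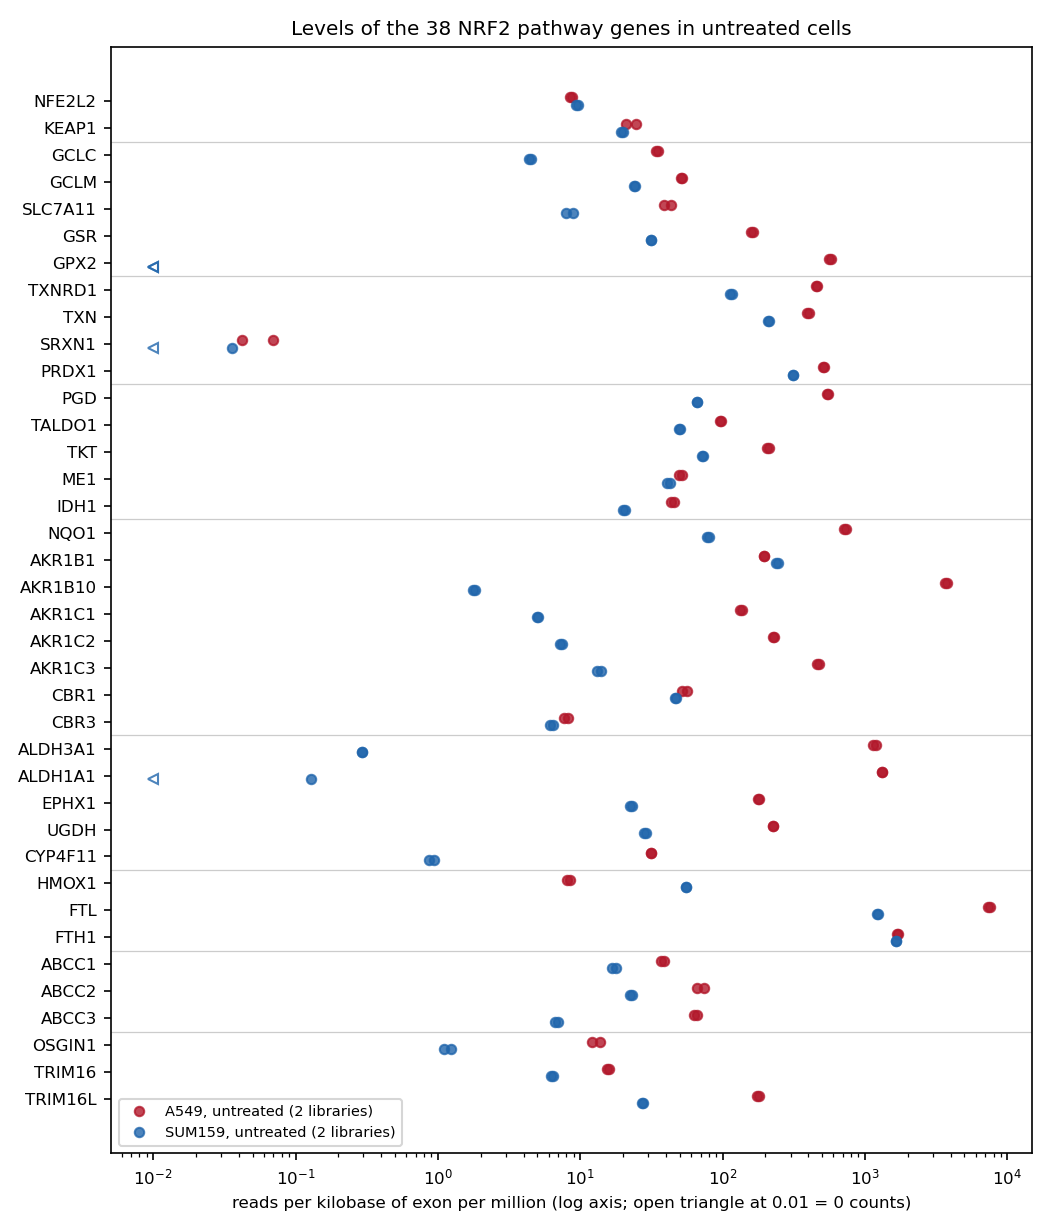
Level of each of the 38 genes in the 4 untreated libraries (x axis, CPM per kilobase of exon, RPKM, on a log axis; red, A549; blue, SUM159; 1 point per library). GPX2, ALDH1A1, ALDH3A1 and AKR1B10 show the widest gaps, HMOX1 lies higher in SUM159, and FTH1 lies between 1657 and 1697 in all 4 libraries.

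The next comparisons set each treatment against untreated cells of the same line, with 37 members tested in A549 and 35 in SUM159. With palbociclib 24 members changed in A549, 19 higher and 5 lower, where 43.2% of all genes tested were called. In SUM159 27 members changed, 19 higher and 8 lower, where 54.5% of all genes were called. The median log2 change of the members was 0.132 in A549 and 0.193 in SUM159, beside 0.0280 and 0.0186 over all genes. With indisulam 23 members changed in A549, 16 higher and 7 lower (49.2% of all genes called), and 16 in SUM159, 6 higher and 10 lower (46.9%), with medians of 0.0957 and -0.0103. The 45.7% of members called with indisulam in SUM159 is near the share of all genes. With the combination 29 members changed in A549, 23 higher and 6 lower (57.8% of all genes called), and 29 in SUM159, 20 higher and 9 lower (65.3%), with medians of 0.160 and 0.151. Among all genes, 22.0% were higher and 21.1% lower with palbociclib in A549 and 25.5% and 29.0% in SUM159, with indisulam 23.3% and 25.9%, and 21.9% and 24.9%, and with the combination 27.4% and 30.4%, and 32.2% and 33.1%.

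Few of these changes were large. No member rose by 2-fold or more in A549 with any treatment, and 2 members fell that far with indisulam and 3 with the combination. In SUM159 the members that rose at least 2-fold numbered 2 with palbociclib, 0 with indisulam and 3 with the combination, and 1 fell that far with indisulam and with the combination. Among all genes tested in A549, 2.5% rose and 2.78% fell at least 2-fold with palbociclib, 3.17% and 5.02% under indisulam and 5.53% and 7.63% under the combination. In SUM159 these shares were 5.6% and 2.10%, 3.74% and 1.87%, and 10.6% and 4.27%. The split of small changes into higher and lower depends on the scaling in both lines. Libraries were also scaled by total counts instead. In SUM159 the median of all genes then rose from 0.0186 to 0.124 with palbociclib and from 0.0149 to 0.163 with the combination. In A549 it rose from 0.028 to 0.0879 and from 0.00137 to 0.0894. The members called higher and lower in SUM159 were then 24 and 4 with palbociclib, 10 and 5 under indisulam and 23 and 5 under the combination. Those in A549 were 25 and 3, 20 and 7, and 26 and 5. All genes shifted upward as well. Of all genes called, 62.5%, 57.9% and 64.3% were then higher in SUM159, against 46.8%, 46.8% and 49.3% before. In A549 these shares were 62.4%, 52.0% and 57.8%, against 51.1%, 47.3% and 47.4%.

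The members called in every alternative that was run (another scaling or filter, DESeq2, the replicate block, the compared groups alone, or 1 library left out) numbered 16 of 24 with palbociclib, 18 of 23 with indisulam and 22 of 29 with the combination in A549, and 20 of 27, 11 of 16 and 20 of 29 in SUM159. The calls lost in 1 or more alternatives were those of KEAP1, SLC7A11, TKT, AKR1B1, AKR1C2, CYP4F11, TRIM16 and TRIM16L with palbociclib, PRDX1, PGD, AKR1C3, CBR1 and CBR3 with indisulam and KEAP1, GPX2, PGD, NQO1, ALDH1A1, HMOX1 and FTH1 with the combination in A549. In SUM159 they were those of NFE2L2, GCLM, SLC7A11, PGD, ME1, NQO1 and UGDH with palbociclib, TXN, PRDX1, IDH1, AKR1B1 and CBR1 with indisulam and TXNRD1, TXN, PRDX1, PGD, ME1, NQO1, EPHX1, UGDH and TRIM16L with the combination. Their log2 changes lay between -0.34 and 0.42, so that the larger changes described here are not among them.

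**Figure D2:**
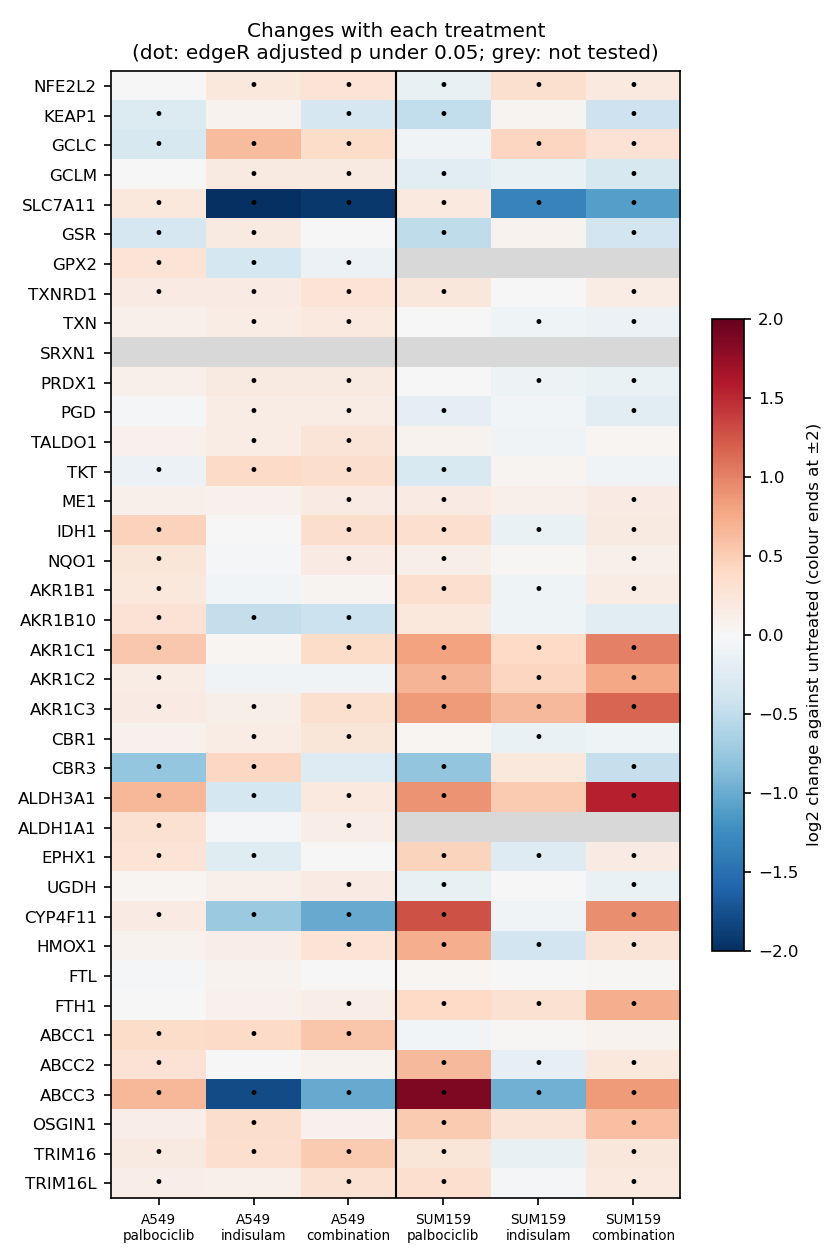
Log2 change of each member against untreated cells of the same line (rows, genes by role; columns, line and treatment; red higher, blue lower, colour ending at 2 in either direction; dot, edgeR adjusted p under 0.05; grey, not tested). The deepest falls are SLC7A11 with indisulam and with the combination and ABCC3 with indisulam, all 3 in A549, and the strongest rise is ABCC3 with palbociclib in SUM159.

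Of the regulators, NFE2L2 (chr2:177218667-177392756) was called higher with indisulam in both lines. It had 122 and 127 CPM in untreated A549, 132 and 121 with palbociclib, 145 and 143 under indisulam and 148 and 153 under the combination, on the scale of the 8 libraries of the line that is used for all within-line values. In SUM159 the values were 149 and 151 untreated, 142 and 130.2 with palbociclib, 188 and 185 under indisulam and 168 and 175 under the combination. The libraries with indisulam, alone or with palbociclib, lay above all untreated libraries in both lines. The log2 change with indisulam was 0.21 ± 0.05, adjusted p = 0.00267, in A549 and 0.31 ± 0.04, adjusted p = 1.79e-05, in SUM159 (edgeR). With palbociclib it was 0.02 ± 0.05 in A549, not called, and -0.14 ± 0.04 in SUM159, a fall that was not called with total-count scaling (-0.04) or without SUM159 UT replicate 2 (-0.13) or PD replicate 2 (-0.08). Up to 23.4% of the exon bases of NFE2L2 are shared with a gene on the other strand, and 13.6% with a gene on the same strand. The strand setting of the counting is not stated, so that the NFE2L2 counts are uncertain.

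KEAP1 (chr19:10486125-10503558) fell with palbociclib and with the combination in both lines. In SUM159 it had 74.0 and 75.7 CPM untreated, 51.5 and 54.7 with palbociclib, 77.5 and 78.0 under indisulam and 54.6 and 57.3 under the combination. The palbociclib and combination groups of SUM159 lay below the other groups without overlap, with log2 changes of -0.49 ± 0.05, adjusted p = 1.74e-07, and -0.42 ± 0.05, adjusted p = 6.92e-07 (edgeR). In A549 the values were 84.6 and 72.1 untreated, 62.4 and 66.4 with palbociclib, 81.5 and 83.6 under indisulam and 68.1 and 56.2 under the combination. The change with palbociclib in A549 was -0.28 ± 0.08, adjusted p = 0.0132 (edgeR), and it was not called with total-count scaling (-0.22) or without A549 UT replicate 1 (-0.16) or PD replicate 1 (-0.24). The fall with the combination in A549, -0.34 ± 0.08, adjusted p = 0.00331 (edgeR), was not called without UT replicate 1 (-0.21). With indisulam alone KEAP1 was not called in either line (0.07 ± 0.08 and 0.05 ± 0.05).

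Among the 5 glutathione genes, SLC7A11 stood out. It encodes the cystine transporter that brings in the limiting building block of glutathione (chr4:138164097-138242349; 12 exons in its main transcript). A549 had 365 and 406 CPM untreated, 453 and 441 with palbociclib, 86.8 and 94.3 under indisulam and 101 and 103 under the combination. SUM159 had 81.1 and 90.4 CPM untreated, 97.3 and 98.7 with palbociclib, 35.5 and 32.8 under indisulam and 40.9 and 39.0 under the combination. In both lines all 4 libraries with indisulam lay far below all 4 without it. The log2 change with indisulam was -2.09 ± 0.06, adjusted p = 6.47e-12, in A549 and -1.33 ± 0.06, adjusted p = 3.82e-11, in SUM159, and with the combination -1.92 ± 0.06 and -1.10 ± 0.06 (edgeR). An antisense gene on the other strand overlaps 8.97% of its exon bases, and the strand setting of the counting is not stated. With palbociclib alone SLC7A11 rose by 0.21 in A549 and 0.19 in SUM159, and neither rise was called without UT replicate 1 of its line (0.13 and 0.12).

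GCLC, the catalytic subunit of glutamate-cysteine ligase that makes the first bond of glutathione (chr6:53497341-53616970), moved the other way. It had 285 and 293 CPM in untreated A549, 235 and 228 with palbociclib, 454 and 445 under indisulam and 369.6 and 374 under the combination, and no 2 of these groups overlapped. In SUM159 it had 40.3 and 41.2 untreated, 39.9 and 37.9 with palbociclib, 54.9 and 55.1 under indisulam and 48.5 and 50.6 under the combination. GCLC thus rose with indisulam in both lines, by 0.64 ± 0.04, adjusted p = 8.45e-09, and 0.43 ± 0.05, adjusted p = 3.95e-06 (edgeR). It fell with palbociclib in A549, with a log2 change of -0.32 ± 0.04, adjusted p = 1.17e-05 (edgeR). In SUM159 its change with palbociclib was -0.07 ± 0.05, not called.

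GCLM, the regulatory subunit of the same ligase, stayed within narrow limits, at 269.6 and 269.8 CPM in untreated A549 and 309 and 305 with indisulam, and at 138 and 139 in untreated SUM159 and 104 and 118 with the combination. It was called higher with the combination in A549 and lower in SUM159, and its start window holds the core match shown above. GSR, the reductase that regenerates glutathione, fell with palbociclib in both lines. In SUM159 it had 119.7 and 120.2 CPM untreated and 87.2 and 82.5 with palbociclib (-0.50 ± 0.04, adjusted p = 3.55e-08, edgeR), and 129 and 123 under indisulam and 90.8 and 93.3 under the combination. In A549 GSR had 568 and 549.7 CPM untreated and 456 and 434 with palbociclib. GPX2 was tested in A549 only, where it had 747 and 724 CPM untreated, 889.5 and 891 with palbociclib, 593 and 561 under indisulam and 674 and 687 under the combination. It was called higher with palbociclib and lower with indisulam, with no overlap of either group with untreated cells. In SUM159 it had at most 1 count in any library.

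The thioredoxin genes moved little. TXNRD1, thioredoxin reductase, rose with all 3 treatments in A549, from 2990.0 and 2928 CPM untreated to 3551 and 3574 with the combination, and with palbociclib and the combination in SUM159. TXN and PRDX1 were called higher with indisulam and with the combination in A549, and lower with both in SUM159. All log2 changes of TXNRD1, TXN and PRDX1 lay between 0.0941 and 0.268 in A549 and between -0.137 and 0.233 in SUM159. With total-count scaling the sign of the combination change of TXN and PRDX1 in SUM159 turned, to 0.03 and 0.01. The falls of TXN and PRDX1 with indisulam in SUM159 were also not called when 1 of the 4 libraries compared was left out, whichever it was, with log2 changes over all alternatives of -0.12 to -0.04 for TXN and -0.11 to -0.04 for PRDX1.

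Of the 5 genes of NADPH supply and the pentose phosphate pathway, all rose with the combination in A549. These are PGD, TALDO1 and TKT of the pentose phosphate pathway, the malic enzyme ME1 and the isocitrate dehydrogenase IDH1, with log2 changes of 0.153 to 0.346. IDH1 had 206 and 198 CPM in untreated A549 and 272 and 282 with palbociclib, and 104 and 99.1 in untreated SUM159 and 133 and 124 with palbociclib. It was called higher with palbociclib in both lines. TKT, transketolase, was called lower with palbociclib in both lines and higher with indisulam in A549, from 1935 and 1887 CPM untreated to 2473 and 2502. In SUM159 the 5 genes with the combination ranged from -0.213 to 0.175, with 2 higher (ME1 and IDH1) and 1 lower (PGD), and the fall of PGD was not called with total-count scaling (-0.06).

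Among the 8 genes of quinone and carbonyl reduction, the AKR1C genes rose in SUM159. AKR1C3 (chr10:5035354-5107686) had 58.1 and 53.9 CPM in untreated SUM159, 102 and 99.5 with palbociclib, 85.9 and 89.0 under indisulam and 125 and 125 under the combination. AKR1C1 had 46.6 and 46.9, 83.0 and 80.0, 60.7 and 62.2 and 92.7 and 95.7 CPM in the same groups, and AKR1C2 46.9 and 48.2, 80.7 and 72.6, 62.3 and 66.2 and 82.0 and 81.4. Every treated library of SUM159 lay above both untreated ones for all 3 genes. The log2 changes of AKR1C3, AKR1C1 and AKR1C2, in this order, were 0.85 ± 0.05, 0.80 ± 0.05 and 0.69 ± 0.06 with palbociclib, and 1.16 ± 0.05, 1.01 ± 0.05 and 0.78 ± 0.06 with the combination. For the summed counts of the 3 genes the change was 0.78 ± 0.04 with palbociclib, 0.50 ± 0.04 with indisulam and 1.002 ± 0.04 with the combination (all called, edgeR).

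In A549 the AKR1C genes had far higher untreated levels, and their log2 changes were smaller. AKR1C3 had 1788 and 1737 CPM untreated, 1930.0 and 2022 with palbociclib, 1922 and 1914 under indisulam and 2187 and 2231 under the combination. AKR1C1 rose with palbociclib from 1157 and 1128 to 1582 and 1740.0 CPM (0.54 ± 0.05, adjusted p = 4.14e-07, edgeR), and AKR1C2 was called with palbociclib only. The summed counts rose by 0.27 ± 0.04 with palbociclib and 0.22 ± 0.04 with the combination, and with indisulam changed by 0.04 ± 0.04 (adjusted p = 0.426, edgeR).

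AKR1B10 went down with indisulam in A549. It had 6468 and 6293 CPM untreated, 7599 and 7918 with palbociclib, 4595 and 4620.0 under indisulam and 4613 and 4885 under the combination. The 4 libraries with indisulam lay below the other 4, with log2 changes of -0.47 ± 0.04, adjusted p = 4.69e-07, and -0.43 ± 0.04, adjusted p = 6.18e-07 (edgeR). In SUM159 AKR1B10 stayed between 2.73 and 4.65 CPM and was not called with any treatment. NQO1, the quinone reductase used most often as a readout of NRF2, had 2116 and 2042 CPM in untreated A549, 2336 and 2589 with palbociclib, 1986 and 2043 under indisulam and 2351 and 2286 under the combination. It was called higher with palbociclib and with the combination in both lines and with indisulam in neither. In SUM159 NQO1 had 245 and 251 CPM untreated and 276 and 262 with palbociclib. The combination call in A549 and both calls in SUM159 were lost in some of the alternatives. A gene on the other strand overlaps 19.35% of the exon bases of NQO1.

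CBR3, a carbonyl reductase, fell with palbociclib in both lines. It had 7.39 and 7.89 CPM in untreated A549 and 4.69 and 4.29 with palbociclib (-0.78 ± 0.12, adjusted p = 0.000154, edgeR), and 6.80 and 6.47 in untreated SUM159 and 3.52 and 4.07 with palbociclib (-0.79 ± 0.13, adjusted p = 5.18e-05, edgeR). With indisulam it had 10.6 and 9.83 CPM in A549, a rise of 0.42 ± 0.11 that was called by edgeR, but not without UT replicate 1 (0.38) or IN replicate 1 (0.37) or by DESeq2. An antisense gene overlaps 71.1% of its exon bases, so these counts may hold reads of that gene. CBR1, its neighbour on chromosome 21, was called only with indisulam in SUM159, where it fell, and with indisulam and the combination in A549, where it rose.

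Among the genes of aldehyde, epoxide and drug metabolism, ALDH3A1 had 4495 and 4289 CPM in untreated A549, 6783 and 7163 with palbociclib, 3427 and 3459 under indisulam and 5106 and 4899 under the combination. No 2 of these groups overlapped. It rose with palbociclib by 0.67 ± 0.04, adjusted p = 1.25e-08, and fell with indisulam, with a log2 change of -0.35 ± 0.04, adjusted p = 1.03e-05 (edgeR). In SUM159 its level was low, at 1.21 and 1.197 CPM untreated, 2.29 and 2.21 with palbociclib, 1.80 and 1.67 under indisulam and 3.21 and 3.88 under the combination. It rose there with palbociclib, by 0.90 ± 0.22, adjusted p = 0.00203, and with the combination, by 1.55 ± 0.20, adjusted p = 3.05e-06 (edgeR).

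CYP4F11 (chr19:15912367-15934867; 12 exons) went in different directions in the 2 lines. A549 had 113 and 113 CPM untreated, 128 and 127 with palbociclib, 65.3 and 70.3 under indisulam and 56.8 and 56.0 under the combination. SUM159 had 3.42 and 3.69 untreated, 9.34 and 8.02 with palbociclib, 3.89 and 2.91 under indisulam and 6.14 and 7.49 under the combination. With the combination the A549 libraries fell below all untreated ones and the SUM159 libraries rose above them, with log2 changes of -1.01 ± 0.05, adjusted p = 2.87e-10, and 0.93 ± 0.16, adjusted p = 8.35e-05 (edgeR). With indisulam alone CYP4F11 fell in A549, with a log2 change of -0.74 ± 0.05, and was not called in SUM159, at -0.08 ± 0.19. With palbociclib it rose in SUM159 by 1.28 ± 0.15. The rise in A549, 0.17 ± 0.05, was not called without UT replicate 1 (0.16) or UT replicate 2 (0.17).

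EPHX1, microsomal epoxide hydrolase, was called higher with palbociclib and lower with indisulam in both lines. It had 429 and 426 CPM in untreated A549, 524 and 510.2 with palbociclib and 364 and 356 with indisulam, and 60.9 and 58.6, 80.7 and 82.6 and 51.6 and 48.4 in the same groups of SUM159. The 3 groups did not overlap in either line. ALDH1A1 had 3636 and 3598 CPM in untreated A549 and 4408 and 4513 with palbociclib, where it was called higher. UGDH, which makes the sugar donor for glucuronidation, had 887 and 875 CPM in untreated A549 and 974 and 995 with the combination, where it was called higher. In SUM159 UGDH was called lower with palbociclib and the combination. Neither fall was called with total-count scaling (-0.04 and 0.02) or without UT replicate 1 (-0.11 and -0.10), nor was the first without PD replicate 2 (-0.09) or the second without P+I replicate 1 (-0.07).

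Of the iron genes, HMOX1 and FTH1 responded more to palbociclib in SUM159 than in A549, with a difference that passed the interaction test. HMOX1 had 136 and 135 CPM in untreated SUM159, 226 and 222 with palbociclib, 104 and 105 under indisulam and 159.9 and 165 under the combination, and no 2 groups overlapped. Its log2 change was 0.72 ± 0.04, adjusted p = 3.77e-11, with palbociclib, -0.38 ± 0.04, adjusted p = 5.45e-07, with indisulam and 0.26 ± 0.04, adjusted p = 1.12e-05, with the combination (edgeR). In A549 it lay between 17.9 and 22.9 CPM in all libraries and was called, higher, with the combination only (0.27 ± 0.08, beside which no difference between lines was called), and not without UT replicate 2 (0.24). FTH1 had 3529 and 3511 CPM in untreated SUM159, 4639 and 4669 with palbociclib, 4376 and 4274 under indisulam and 5860.0 and 5812 under the combination, and the combination libraries were above all others (0.73 ± 0.03, adjusted p = 3.32e-12, edgeR). Exons of BEST1 on the other strand overlap 63.2% of its exon bases, and both ferritin genes have processed copies elsewhere in the genome. FTL had 6385 and 6194 CPM in untreated A549 and 1117 and 1131 in untreated SUM159, and was not called with any treatment in either line.

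The 3 export pumps of the ABCC family, which carry glutathione and glucuronide conjugates out of cells, gave the largest change of all members in SUM159. ABCC3 (chr17:50634777-50692253) had 71.2 and 67.4 CPM in untreated SUM159, 240.1 and 263 with palbociclib, 34.05 and 37.3 under indisulam and 132 and 117 under the combination. In A549 it had 589 and 615 untreated, 972 and 939.9 with palbociclib, 172 and 176 under indisulam and 279 and 317 under the combination. No 2 groups overlapped in either line, and palbociclib was the highest and indisulam the lowest group in both. The log2 change was 0.67 ± 0.05 and 1.86 ± 0.06 with palbociclib and -1.79 ± 0.05 and -0.95 ± 0.07 with indisulam, in A549 and SUM159 (adjusted p from 1.37e-13 to 9.45e-08, edgeR). With the combination ABCC3 was below untreated cells in A549 (-1.01 ± 0.05, adjusted p = 5.44e-10) and above them in SUM159 (0.85 ± 0.06, adjusted p = 2.67e-09, edgeR).

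ABCC1 rose in A549 with every treatment, whereas ABCC2 had the same calls as ABCC3 in SUM159 and, in A549, the same call with palbociclib alone. ABCC1 had 314 and 328 CPM in untreated A549, 403 and 424 with palbociclib, 416 and 417 under indisulam and 474 and 464 under the combination (0.55 ± 0.04, adjusted p = 3.2e-08, edgeR), and was not called with any treatment in SUM159, where it lay between 151 and 169 CPM. ABCC2 rose with palbociclib in both lines, from 191 and 184 to 293 and 294 CPM in SUM159 (0.65 ± 0.04, adjusted p = 2.36e-10, edgeR) and from 499.9 and 557 to 655 and 635 in A549. With indisulam ABCC2 had 524 and 527 CPM in A549, not called, and 167 and 169 in SUM159, where it was called lower.

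Of the remaining targets, OSGIN1, an inhibitor of growth induced by oxidants, had 6.51 and 7.28 CPM in untreated SUM159, 9.64 and 10.1 with palbociclib, 8.10 and 8.404 under indisulam and 9.64 and 11.4 under the combination (0.60 ± 0.11, adjusted p = 0.000155, edgeR). TRIM16, a ubiquitin ligase, rose with the combination in A549, from 87.0 and 83.7 to 119.9 and 125 CPM (0.52 ± 0.06, adjusted p = 3.14e-06, edgeR). TRIM16L, annotated as a transcribed pseudogene that resembles TRIM16, had 204 and 199 CPM in untreated A549 and 246 and 253 with the combination, and reads can be split between these 2 copies. Both were called higher with palbociclib and with the combination in both lines, although the palbociclib rise in A549 was not called for either gene by DESeq2, nor without UT replicate 1, UT replicate 2 or PD replicate 2.

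**Figure D3:**
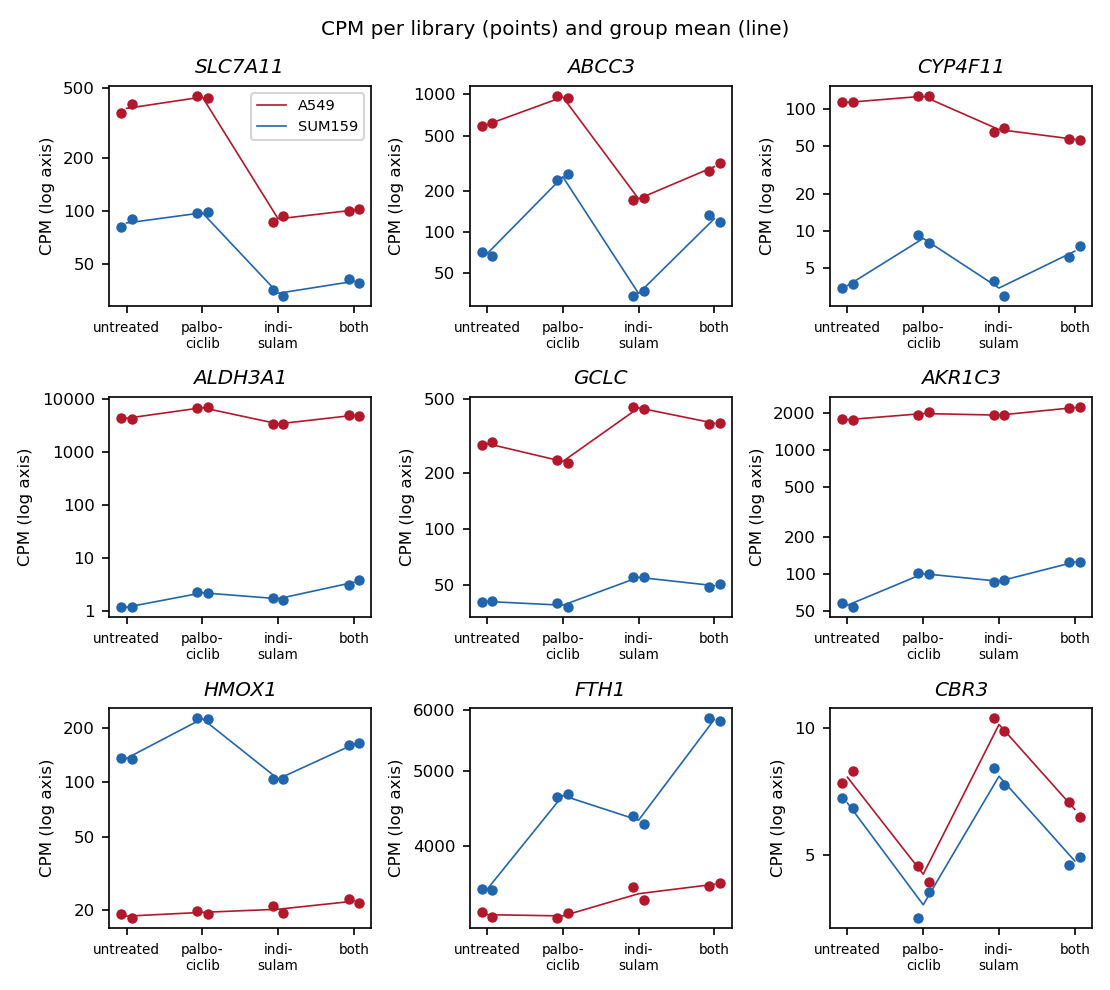
CPM of 9 members in each library (points; log y axis, scaled within each line) and group means (lines), untreated and with palbociclib, indisulam or both drugs (red, A549; blue, SUM159). SLC7A11 and ABCC3 fall with indisulam in both lines, CYP4F11 and ABCC3 end below untreated in A549 and above it in SUM159 with both drugs, and FTH1 and HMOX1 rise with palbociclib in SUM159.

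The combination was next compared with each single drug. Against palbociclib alone, 31 members differed in A549, 18 higher and 13 lower (51.5% of all genes called), and 22 in SUM159, 10 higher and 12 lower (48.3%). The lower members included SLC7A11 (-2.14 ± 0.05 in A549 and -1.29 ± 0.05 in SUM159) and ABCC3 (-1.68 ± 0.05 and -1.01 ± 0.06), and in A549 CYP4F11 (-1.17 ± 0.05) and AKR1B10 (-0.71 ± 0.04). GCLC was higher with the combination than with palbociclib in A549 (0.68 ± 0.04), as was CBR3 (0.52 ± 0.12). The SUM159 count was 14 without P+I replicate 1. Of all genes, 23.7% were higher and 27.8% lower than with palbociclib in A549, and 23.4% and 24.9% in SUM159. Against indisulam alone, 21 members differed in A549, 15 higher and 6 lower (38.8%), and 27 in SUM159, 18 higher and 9 lower (52.9%). The higher members included ABCC3 (0.78 ± 0.05 and 1.80 ± 0.07) and ALDH3A1 (0.54 ± 0.04 and 1.02 ± 0.17), and in SUM159 CYP4F11 (1.004 ± 0.15) and HMOX1 (0.64 ± 0.04). Of all genes, 18.6% were higher and 20.1% lower than with indisulam in A549, and 24.9% and 28.0% in SUM159. With total-count scaling the members higher and lower than with indisulam alone were 22 and 5 in A549 and 23 and 3 in SUM159. Those higher and lower than with palbociclib alone were 18 and 11, and 11 and 8. Of all genes called, 61.2% and 62.4% were then higher than with indisulam alone, against 48.1% and 47.1% before. For palbociclib alone these shares were 50.5% and 56.7%, against 46.0% and 48.5%. SLC7A11 was at 86.8 and 94.3 CPM under indisulam and 101 and 103 under the combination in A549, a log2 difference of 0.17 ± 0.06, adjusted p = 0.0319 (edgeR).

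Whether the effect of both drugs equalled the sum of their single log2 changes was tested as a departure from additivity. It was called for 2 members in A549, both lower than the sum (3.53% of all genes called), and for 3 in SUM159, all lower than the sum (4.38%). Of all genes, 1.49% lay above and 2.05% below the sum in A549, and 2.22% and 2.16% in SUM159. In A549 these were CYP4F11 (-0.43 ± 0.07, adjusted p = 0.00517, edgeR) and AKR1B10 (-0.24 ± 0.06, adjusted p = 0.0395, edgeR). CYP4F11 was not called without IN replicate 2 (-0.38), and AKR1B10 was lost in 10 of the 14 alternative fits. In SUM159 they were AKR1C2 (-0.34 ± 0.08, adjusted p = 0.0182), AKR1C3 (-0.33 ± 0.06, adjusted p = 0.00713) and ABCC2 (-0.28 ± 0.05, adjusted p = 0.00742, edgeR). AKR1C2 was not called without any 1 of 4 libraries, AKR1C3 not without UT replicate 2 (-0.28), and the summed AKR1C counts departed by -0.29 ± 0.05 (adjusted p = 0.00674, edgeR). For the other members a departure was not detected with 2 libraries per group, which does not show that the drugs act additively.

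The last comparison asked whether a treatment changed a member differently in the 2 lines, with an interaction term fitted over all 16 libraries. With palbociclib the response of 14 members differed, 1 higher and 13 lower in A549 than in SUM159 (12.8% of all genes called), with indisulam 19, 11 higher and 8 lower (15%), and with the combination 21, 10 higher and 11 lower (30.9%). The shares of all genes with a higher and a lower log2 change in A549 were 3.15% and 9.65%, 6.97% and 8.04%, and 11.8% and 19.1%. A lower log2 change can be a smaller rise or a deeper fall, and a higher one a larger rise or a shallower fall. The median of all genes in these differences was -0.0816, -0.0193 and -0.0995, and scaling by relative log expression (RLE) gave 2 higher and 9 lower with palbociclib, 12 and 8 under indisulam and 12 and 9 under the combination. The share of higher genes among all genes called was 24.6% with palbociclib and became 56.0% with RLE scaling, and with the combination 38.2% and 53.4%.

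The largest differences between lines were those of ABCC3 and CYP4F11. ABCC3 responded to palbociclib by -1.29 ± 0.09, adjusted p = 4.39e-10, lower in A549 than in SUM159, and to the combination by -1.93 ± 0.09, adjusted p = 1.82e-13 (edgeR). CYP4F11 differed by -1.20 ± 0.15, adjusted p = 3.34e-06, with palbociclib and by -1.999 ± 0.15, adjusted p = 9.11e-10, with the combination (edgeR). ALDH3A1 differed by -1.42 ± 0.16, adjusted p = 4.65e-07, with the combination (edgeR). All 3 AKR1C genes had lower log2 changes in A549 than in SUM159 with each treatment, with differences of -0.71, -0.92 and -0.90 for the combination and -0.84 ± 0.06 for their summed counts. SLC7A11 fell further in A549, with differences of -0.76 ± 0.09 with indisulam and -0.89 ± 0.08 with the combination. HMOX1 rose with palbociclib in SUM159 and not detectably in A549 (-0.76 ± 0.08), and FTH1 likewise (-0.51 ± 0.05). For NFE2L2 and KEAP1 no interaction was called with any treatment, with differences between -0.10 and 0.12.

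Members called in both lines were also counted by direction. With palbociclib 19 members were called in both lines, 15 higher in both and 4 lower in both (KEAP1, GSR, TKT and CBR3). Among the 14122 genes tested in A549 and SUM159, 34% were called in both, 13.6% higher in both, 19.1% lower in both and 1.3% in opposite directions. With indisulam 9 were called in both, 3 higher in both (NFE2L2, GCLC and AKR1C3), 3 lower in both (SLC7A11, EPHX1 and ABCC3) and 3 in opposite directions (TXN, PRDX1 and CBR1), where of all genes 32.7% were called in both, 13.5% higher in both, 17.5% lower in both and 1.82% in opposite directions. The SUM159 calls of these 3 genes and the A549 calls of PRDX1 and CBR1 were lost in 1 or more alternatives. With the combination 22 were called in both, 13 higher in both, 2 lower in both (KEAP1 and SLC7A11) and 7 in opposite directions (GCLM, TXN, PRDX1, PGD, UGDH, CYP4F11 and ABCC3), where of all genes 45.5% were called in both, 17.2% higher in both, 23.0% lower in both and 5.34% in opposite directions. All opposite pairs passed the interaction test, which uses the same libraries. As the pairs were picked by their opposite calls, this is no separate support. Of the 7, the directions of TXN, PRDX1 and UGDH in SUM159 turned with total-count scaling, and those of GCLM, PGD, CYP4F11 and ABCC3 did not. The calls of PGD in both lines were lost in 1 or more alternatives, as were the SUM159 calls of TXN, PRDX1 and UGDH.

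**Figure D4:**
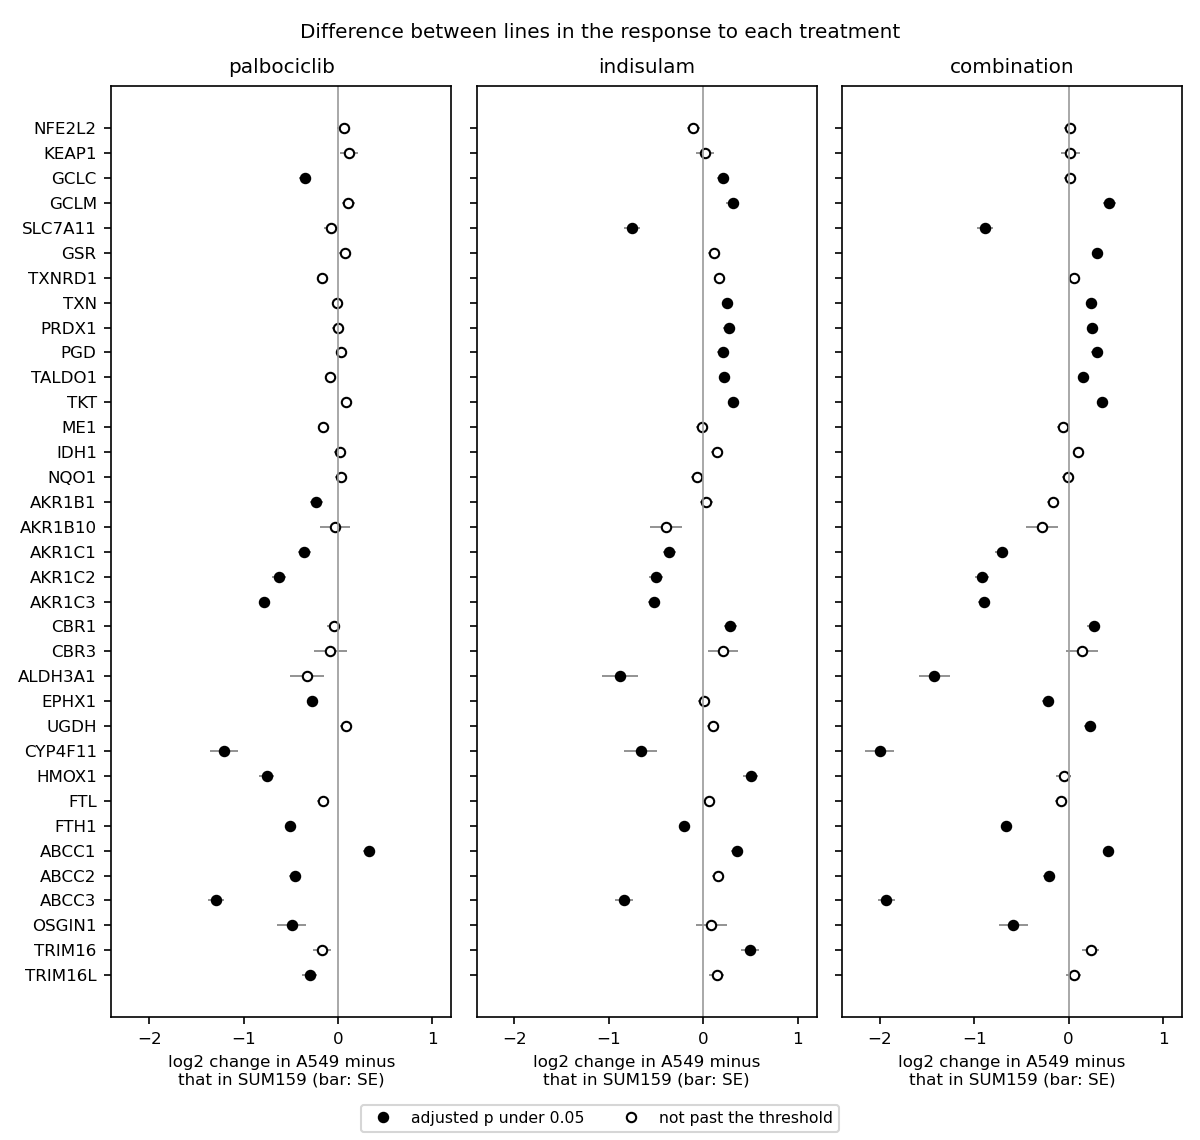
Difference between lines in the log2 change with each treatment (x axis, A549 minus SUM159; bar, SE; filled, edgeR adjusted p under 0.05; open, not past the threshold), for the 35 members tested in both lines. ABCC3 and CYP4F11 lie at -1.93 and -1.999 with the combination, the AKR1C genes lie left of 0 in all 3 panels, and ABCC1 lies right of 0 in all 3.

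Other genes of the pathway, which are not members, were counted from a list of 100 symbols, of which 99 were found and 96 were tested in A549 and 94 in SUM159. With palbociclib 45 rose and 14 fell in A549, and 36 rose and 21 fell in SUM159, or 46.9% and 14.6% and 38.3% and 22.3% of those tested, beside 22.0% and 21.1%, and 25.5% and 29.0%, of all genes. With indisulam the counts were 29 and 35 in A549 (30.2% and 36.5%) and 21 and 26 in SUM159 (22.3% and 27.7%), beside 23.3% and 25.9%, and 21.9% and 24.9%, of all genes. With the combination they were 31 and 29 (32.3% and 30.2%), and 40 and 32 (42.6% and 34%), beside 27.4% and 30.4%, and 32.2% and 33.1%, of all genes. GLRX, a glutaredoxin, rose with palbociclib in both lines, by 1.05 ± 0.05 in A549 and 1.26 ± 0.05 in SUM159. PTGR2, a prostaglandin reductase, rose with indisulam in both, by 1.002 ± 0.09 and 0.83 ± 0.15.

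Among the list's genes of NADPH supply and the pentose phosphate pathway, 7 of 10 tested fell, 1 rose and 2 were not called with indisulam in A549. In SUM159 5 of 9 fell, 0 rose and 4 were not called. Of all genes, 25.9% fell in A549 and 24.9% in SUM159. With the combination 7 of 10 fell in A549 and 8 of 9 in SUM159, and 0 rose in either line, where 30.4% and 33.1% of all genes fell. No test was made of this group as a whole. ME2, a mitochondrial malic enzyme, fell with indisulam, by a log2 change of -1.45 ± 0.06 (A549) and -1.04 ± 0.05 (SUM159), whereas ME1, its cytosolic counterpart among the members, was not called with indisulam in either line. ME2 had 81.7 and 83.3 CPM in untreated A549 and 30.6 and 29.8 with indisulam, and 162 and 163 in untreated SUM159 and 81.1 and 77.0 with indisulam. GSS, which adds glycine in the second step of glutathione synthesis, fell with the combination, with log2 changes of -1.61 ± 0.07 and -0.995 ± 0.05. It had 51.7 and 50.2 CPM in untreated A549 and 15.6 and 17.8 with the combination, and 65.7 and 62.9 and 32.8 and 31.6 in the same groups of SUM159, so that the combination libraries lay below the untreated ones, while GCLC, the enzyme of the first step, was called higher.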

How the data were processed

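RNA of A549 and SUM159 cells was sequenced from stranded mRNA libraries, 1 count file per library. The authors deposited raw counts of reads per Ensembl gene, without normalization or pooling. Reads were trimmed with SeqPurge and aligned to GRCh38 with HISAT2 2.2.1, and HTSeq is named in the submitters' processing notes. Its strand setting and annotation release are not given in the sources used here, so that counts of overlapping genes are uncertain. Entries that name no gene held 13.2% to 16.4% of the total of a library and were left out.

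Groups came from the labels. Symbols, positions and exon lengths came from GENCODE release 44, which matched 58207 of 58676 identifiers. Genes passing filterByExpr (15744 in A549, 16080 in SUM159 and 17764 in all 16 libraries) were tested with the edgeR 4.0.16 quasi-likelihood test (R 4.3.3) after TMM scaling, with 1 coefficient per group. The study gives a filter at an adjusted p of 0.05 and does not name the test behind it. The SE follows from the F statistic of each change, with adjusted p-values over all genes tested. CPM for levels within a line used the scaling of its 8 libraries, and levels between lines or genes the scaling of all 16. DESeq2 1.42.0 and the other alternatives are given in the closing section. The procedure was tested on simulated counts. Far fewer genes were changed there than were called here, so that the simulation does not cover this setting.

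The 2 libraries of a group differed beyond counting noise in all 8 groups (chi-square divided by its degrees of freedom, 1.59 to 9.13), and each was counted as 1 replicate. The members and lists were chosen with earlier results of these data known. Log2 changes are printed for NFE2L2 and KEAP1, and per comparison for at most the 8 largest rises and the 8 largest falls of members past an adjusted p of 0.05, an absolute log2 change of 0.5 and a mean of 1 CPM. Values of such genes in other comparisons stand beside them. For the other pathway genes the limits were 2 rises and 2 falls and a mean of 5 CPM. Other values of single members were added after they were seen. CPM and RPKM were computed here from the deposited counts.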

Additional observations from a re-analysis of the deposited data

Results flagged for a closer look

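The results below were picked out because the same treatment changed a member differently in the 2 cell lines, by the edgeR interaction term over all 16 libraries. Each value is the log2 change in A549 minus that in SUM159. A response called lower can thus be a smaller rise or a deeper fall in A549, as for SLC7A11 with indisulam. A response called higher can be a larger rise or a shallower fall.

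With palbociclib, 14 members were picked out. The response was lower in A549 for ABCC3 (-1.29), CYP4F11 (-1.20), AKR1C3 (-0.78), HMOX1 (-0.76), AKR1C2 (-0.63), FTH1 (-0.51), OSGIN1 (-0.49), ABCC2 (-0.46), AKR1C1 (-0.36), GCLC (-0.35), TRIM16L (-0.30), EPHX1 (-0.27) and AKR1B1 (-0.23). It was higher in A549 for ABCC1 (0.32). The adjusted p of these differences ran from 4.39e-10 to 0.0373 (edgeR).

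With indisulam, 19 members were picked out. The response was lower in A549 for ALDH3A1 (-0.88), ABCC3 (-0.84), SLC7A11 (-0.76), CYP4F11 (-0.67), AKR1C3 (-0.52), AKR1C2 (-0.50), AKR1C1 (-0.36) and FTH1 (-0.21). It was higher in A549 for HMOX1 (0.50), TRIM16 (0.50), ABCC1 (0.35), TKT (0.32), GCLM (0.31), CBR1 (0.29), PRDX1 (0.27), TXN (0.25), TALDO1 (0.22), GCLC (0.20) and PGD (0.20). The adjusted p of these differences ran from 1.67e-06 to 0.0257 (edgeR).

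With the combination, 21 members were picked out. The response was lower in A549 for CYP4F11 (-1.999), ABCC3 (-1.93), ALDH3A1 (-1.42), AKR1C2 (-0.92), AKR1C3 (-0.90), SLC7A11 (-0.89), AKR1C1 (-0.71), FTH1 (-0.67), OSGIN1 (-0.59), EPHX1 (-0.22) and ABCC2 (-0.21). It was higher in A549 for GCLM (0.43), ABCC1 (0.42), TKT (0.35), GSR (0.30), PGD (0.30), CBR1 (0.27), PRDX1 (0.25), TXN (0.24), UGDH (0.22) and TALDO1 (0.15). The adjusted p of these differences ran from 1.82e-13 to 0.0329 (edgeR).

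Of these members, 8 of 14 with palbociclib, 14 of 19 with indisulam and 16 of 21 with the combination were called in every alternative that was run. The sign of the difference turned for AKR1B1 with palbociclib without A549 PD replicate 1 (0.03) and for ABCC2 with the combination without A549 UT replicate 2 (0.01). OSGIN1 with palbociclib was not called when any 1 library of the 8 compared was left out, with differences of -0.57 to -0.21 over all alternatives. Line and growth medium cannot be told apart in these differences.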

How the results depend on the processing

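The members called in each comparison were counted again with total-count and RLE scaling, DESeq2, no filter, a mean of at least 1 CPM, the compared groups alone, a replicate block and with 1 library left out. Of these counts 179 stayed within 1.5 times the count first given and 12 did not. The departure from additivity in A549 was called for 1 member with RLE scaling, with DESeq2, with the 1 CPM filter and with the replicate block, for 6 with no filter, and for 0 to 3 with 1 library left out, against 2 (1 without UT replicate 1, UT replicate 2, PD replicate 2 or IN replicate 1, and 0 without IN replicate 2). In SUM159 it was called for 1 to 4 members with 1 library left out, against 3, with the lowest without UT replicate 2. The SUM159 members differing between the combination and palbociclib numbered 14 to 24 with 1 library left out, against 22, with the lowest without P+I replicate 1. For the single changes chosen by the naming rule, 1210 values kept their direction and their side of the threshold, 17 fell short of it, 7 newly passed it and 11 turned direction, these 11 all NFE2L2 or KEAP1 values. Of the called changes outside that choice, those of TXN, PRDX1 and UGDH with the combination in SUM159 and the differences between lines of AKR1B1 with palbociclib and ABCC2 with the combination also turned in 1 or more alternatives. The KEAP1 difference between lines in the indisulam response became -0.00657 with total-count scaling and -0.00771 with no filter, and -0.0823 to 0.17 with 1 library left out, against 0.02. The NFE2L2 change with palbociclib in A549 became -0.00377 with the compared groups alone and -0.0477 to 0.0751 with 1 library left out, against 0.02. With 1 library left out, the KEAP1 change with indisulam in A549 ran from -0.0306 to 0.20, the KEAP1 difference between untreated lines from -0.0124 to 0.24, and the difference between lines in the combination response from -0.00779 to 0.18 for NFE2L2 and from -0.00896 to 0.30 for KEAP1.

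Replicates 1 and 2 carry the same numbers in every group. How libraries of 1 number departed from the mean of their group correlated between -0.199 and 0.195 over 12 pairs of groups. The main fit used no block for the number. Such weak correlations cannot show whether samples of 1 number shared a preparation. With the replicate block the SUM159 members called with indisulam were 13 against 16, and the other counts stayed within 2 of those first given.

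Precision is limited by the 2 technical duplicates of each group, and floors of 3 counts cover counting error only, as PCR copies are not independent molecules. Genes that share exons or sequence with others, such as SRXN1, CBR3, FTH1, NFE2L2, PRDX1, NQO1 and the AKR1C and TRIM16 genes, carry uncertain counts.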
